A study of Homo sapiens with 3 samples.

Results

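The retinoblastoma pocket protein genes and the genes of the DREAM complex were followed in RNA that came down with MEX3A in ACHN cells. Members were the rows of both gene tables named RB1, RBL1, RBL2, E2F4, LIN9, LIN37, LIN52, LIN54, RBBP4 or MYBL2. All 10 names were found, in 11 of the 57820 rows, because RBL1 stands in 2 rows under different Ensembl identifiers. A threshold of at least 20 counts over both libraries was passed by 9 member rows, among 10811 rows of the whole table. LIN37 and the second RBL1 row did not pass it.

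ACHN is an established human renal cell carcinoma line. Here it stably overexpressed MEX3A, an RNA-binding protein with KH domains, carrying a Flag tag, and the series places MEX3A in the G1/S transition and the RB/E2F pathway. One group was precipitated with an anti-Flag antibody and the other with IgG, the background of the method. Both groups carry MEX3A-Flag, were fixed with 0.3% formaldehyde and received 0.125 M glycine. The labels give 5 ug of antibody for Flag and no amount for IgG. Each group is 1 library, so no difference below has a replicate check and no p-value is given. The labels do not say whether the line is 1 clone or which promoter drives the transgene. Input RNA was not analysed here, so amounts in the cells are unknown, and a ratio cannot tell RNA bound to MEX3A from other differences between the precipitates.

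Total counts were 5498124 for Flag and 3412864 for IgG. All 8 kidney epithelial markers were tested: 3 (PAX2, CDH2 and LHX1) were enriched, 0 were depleted, and 4 (VIM, KRT8, KRT18 and HAVCR1) had a ratio below 1. Summed over these markers the level was 1299 CPM for Flag and 1130 CPM for IgG. All 5 leukocyte markers were at 0 in both. Of 3 endothelial markers, CDH5 and KDR were at 0 and VWF had 9 Flag counts and 0 IgG counts. A gene is called enriched below where the 95% counting interval of its Flag over IgG ratio, set against total counts, lies wholly above 2, and depleted where it lies wholly below 0.5. Of all genes tested 28.7% were enriched and 1.32% depleted, and the median ratio was 1.93, so a ratio near 1.93 is that of a typical gene.

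Pocket proteins bind E2F transcription factors and hold genes of the cell cycle silent until cyclin-dependent kinases phosphorylate them. In quiescent cells RBL1 or RBL2, E2F4 with its DP partner and the MuvB core of LIN9, LIN37, LIN52, LIN54 and RBBP4 form the repressor DREAM. In cycling cells the MuvB core leaves the pocket protein and joins B-MYB, the product of MYBL2, and later FOXM1, to activate genes of mitosis. Several DREAM subunit genes are themselves targets of E2F factors or of this complex.

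The complex reads DNA through E2F sites and through the CHR element, which LIN54 contacts. The stretches before the starts of RBL1, LIN54 and MYBL2 show such letters in the genes with the highest and the lowest ratio below and in the member whose window holds both kinds. They come from RefSeq, build GRCh38.p14, and lie at chr20:37096171-37096237 on the minus strand, chr4:83010869-83010935 on the minus strand and chr20:43667045-43667111 on the plus strand. Capitals mark E2F letters (GGCGGGA or GCGGGAA or GGCGCGA, either strand) and CHR letters (TTTGAA or TTCGAA, either strand).
RBL1: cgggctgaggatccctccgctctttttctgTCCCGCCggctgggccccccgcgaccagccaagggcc
LIN54: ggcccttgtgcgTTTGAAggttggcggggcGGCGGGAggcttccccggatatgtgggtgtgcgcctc
MYBL2: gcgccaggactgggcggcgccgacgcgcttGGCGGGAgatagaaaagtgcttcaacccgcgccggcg
In LIN54 the CHR letters begin at base -100 and the printed E2F letters at -82, counted from the start. In the 250 bases before the start, E2F letters stood in 6 of the 10 members and in 19.0% of 27305 promoters, and CHR letters in 1 member and in 14.6%. Precipitated RNA does not measure these promoters, and no factor's binding was measured here.

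All 3 pocket protein mRNAs were higher in the Flag library, with RBL1 at the top of the members. The ratios of RBL2 and RB1 exceeded those of 82.0% and 75.7% of the genes tested. RBL1 had 150 Flag counts and 6 IgG counts, or 27.3 CPM (counts scaled to a common library total, with a 95% counting interval of 23.1 to 32.0) and 1.76 CPM (0.645 to 3.83). Its ratio was 15.5 (6.96 to 43.0), above that of 97.9% of the genes tested. The few IgG reads make this interval 6.17-fold wide, so the size of the ratio is known only loosely. RBL2, the pocket protein most abundant in resting cells, had 196 Flag and 26 IgG counts, or 35.6 CPM (30.8 to 41.0) and 7.62 CPM (4.98 to 11.2), a ratio of 4.68 (3.10 to 7.34). RB1, the retinoblastoma tumour suppressor, had 164 Flag and 27 IgG counts, or 29.8 CPM (25.4 to 34.8) and 7.91 CPM (5.21 to 11.5), a ratio of 3.77 (2.50 to 5.89). In CPM the Flag and IgG intervals of all 3 genes do not overlap, as was so with Flag higher for 50.5% of all tested genes. Summed over the 3 genes the counts were 510 and 59, a ratio of 5.37 (4.09 to 7.15).

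The main RBL1 row had 149.64 expected Flag counts and the second row 3.36, which add up to a whole number. Fractions that complete each other are what the counting gives when reads are divided between rows. Adding the rows gave 153 Flag and 6 IgG counts and a ratio of 15.8 (7.11 to 43.8), close to that of the main row alone.

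E2F4, which gives the complex its DNA-binding E2F subunit, had 267 Flag and 66 IgG counts, or 48.6 CPM (42.9 to 54.8) and 19.3 CPM (15.0 to 24.6). Its ratio of 2.51 (1.91 to 3.34) missed the call narrowly, since the lower bound fell short of 2. This ratio exceeded that of 60.9% of the genes tested.

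Of the 5 MuvB core genes 2 were enriched, 2 were tested without a call and 1 was not tested. Of all tested genes 28.7% were enriched, and the ratios of LIN54 and RBBP4 exceeded those of 75.0% and 66.6% of them. LIN54, the DNA-binding subunit, had 95 Flag and 16 IgG counts, 17.3 CPM (14.0 to 21.1) and 4.69 CPM (2.68 to 7.61), and was enriched 3.69-fold (2.16 to 6.71). RBBP4, a histone-binding WD40 protein shared with many chromatin complexes, had 348 Flag and 74 IgG counts, 63.3 CPM (56.8 to 70.3) and 21.7 CPM (17.0 to 27.2), and was enriched 2.92-fold (2.27 to 3.80). LIN9, a scaffold of the core, had 24 Flag and 14 IgG counts, 4.37 CPM (2.80 to 6.49) and 4.10 CPM (2.24 to 6.88), and a ratio of 1.06 (0.529 to 2.23). This ratio was the nearest to 1 among the members, and its interval holds both 1 and the ratio of the typical gene. LIN52, whose phosphorylation by DYRK1A promotes DREAM assembly, had 16 Flag and 5 IgG counts and a ratio of 1.99 (0.695 to 6.93). LIN37, needed for repression by DREAM, had 4 Flag counts and 1 IgG count, a ratio of 2.48 with an interval of 0.246 to 122.3. For LIN52 and LIN37 the depth is too low to place the ratio. Summed over the 5 subunits the counts were 487 and 110, a ratio of 2.75 (2.23 to 3.41), and without RBBP4 139 and 36, a ratio of 2.40 (1.65 to 3.56).

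MYBL2 was the 1 tested member with a lower CPM in the Flag library, a side on which 22.0% of all tested genes lay. It had 127 Flag and 122 IgG counts, 23.1 CPM (19.3 to 27.5) and 35.7 CPM (29.7 to 42.7). The intervals do not overlap, as was so with Flag lower for 6.35% of all tested genes, and the ratio of 0.646 (0.50 to 0.835) exceeded that of only 8.50% of the genes tested. It was not called depleted.

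**Figure D1:**
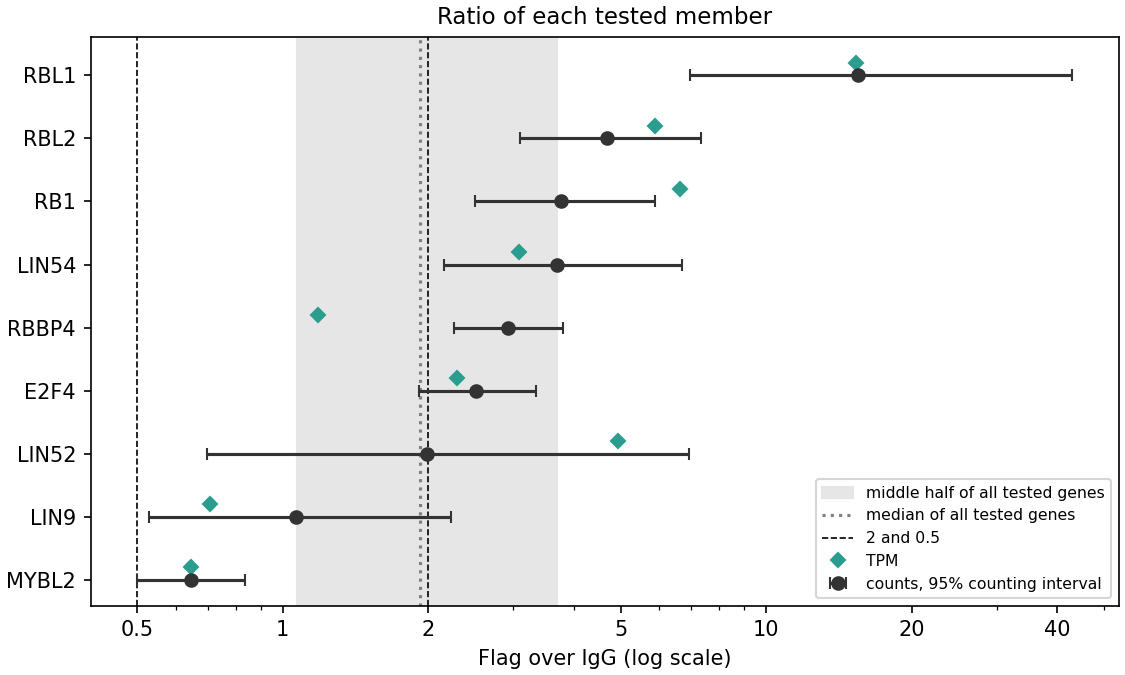
Flag over IgG ratio of the 9 tested members on a log axis, from counts (circles, bars are 95% counting intervals) and from the deposited TPM (diamonds), with the interquartile range of all tested genes as a grey band. RBL1 stands at 15.5 with a wide bar, RBL2, RB1, LIN54 and RBBP4 have bars above 2, and MYBL2 stands at 0.646.

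Of the 9 tested members 5 were enriched and 0 depleted, against 28.7% and 1.32% of all tested genes. The members' median log2 ratio was 1.55, against 0.95 over all tested genes. The members were picked with earlier results of these libraries known, so the count describes them and is no test.

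Which members differ from each other does not depend on how the counts are scaled, because a scaling multiplies every ratio by the same factor. Ratios were compared in 36 pairs by an exact conditional interval of the fold between them. At 95% for each pair 20 pairs differed, and 10 did at the stricter level that covers all 36 together. MYBL2 took part in 6 of those 10. Brackets after a fold give the 95% interval of that pair alone, and the intervals at the stricter level are wider. For RBL1 over MYBL2 the stricter interval was 6.75 to 148, and for E2F4 over MYBL2 2.12 to 7.25. RBL1 lay 24.0-fold above MYBL2 (10.2 to 68.5), RBL2 7.24-fold (4.40 to 12.2), RB1 5.83-fold (3.55 to 9.77), LIN54 5.70-fold (3.11 to 10.9), RBBP4 4.52-fold (3.13 to 6.53) and E2F4 3.89-fold (2.65 to 5.71). From counts, each of these 6 members stood apart from MYBL2 by more than counting error. On TPM, which brings in effective length, the fold over MYBL2 was 1.83 for RBBP4 and 10.3 for RB1, and 23.7, 9.13, 4.76 and 3.55 for RBL1, RBL2, LIN54 and E2F4.

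The other 4 pairs at the stricter level set RBL1 above RBBP4, E2F4 and LIN9, and RBL2 above LIN9. RBL1 lay 14.6-fold above LIN9 (4.62 to 49.9 at 95%, 2.53 to 114 at the stricter level). RBL2 lay 4.40-fold above LIN9 (1.85 to 10.1 at 95%), and its stricter interval of 1.10 to 16.5 only just cleared 1. On TPM the folds over LIN9 were 21.6 for RBL1 and 8.34 for RBL2. Ordered by ratio, the members ran RBL1, RBL2, RB1, LIN54, RBBP4, E2F4, LIN52, LIN9 and MYBL2. Of the 8 neighbouring pairs in that order only RBL1 and RBL2 differed at 95% (3.32-fold, 1.29 to 10.1), and not at the stricter level. RB1 and LIN54 had nearly the same ratio, with a fold of 1.02 (0.488 to 2.08), and the interval leaves room for a difference of 2.08-fold. On TPM the fold between them was 2.16.

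Levels of different genes can be compared on TPM, which divides by length. In the Flag library E2F4 came first at 26.9 TPM (23.8 to 30.3), before RBBP4 at 17.6 (15.8 to 19.5), RBL2 at 12.5 (10.8 to 14.3), RB1 at 11.2 (9.51 to 13.0) and MYBL2 at 9.33 (7.78 to 11.1). RBL1, LIN54, LIN52, LIN37 and LIN9 followed, at 4.90 to 1.45 TPM. In the IgG library RBBP4 at 14.9 TPM (11.7 to 18.7), MYBL2 at 14.4 (12.0 to 17.2) and E2F4 at 11.7 (9.07 to 14.9) came first with overlapping intervals, and no other member was above 2.11 TPM. MYBL2 therefore made up 9.99% of the members' summed TPM with Flag and 29.1% with IgG. The 3 pocket protein genes ranked 3, 4 and 6 by TPM with Flag, and 4, 6 and 9 with IgG.

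**Figure D2:**
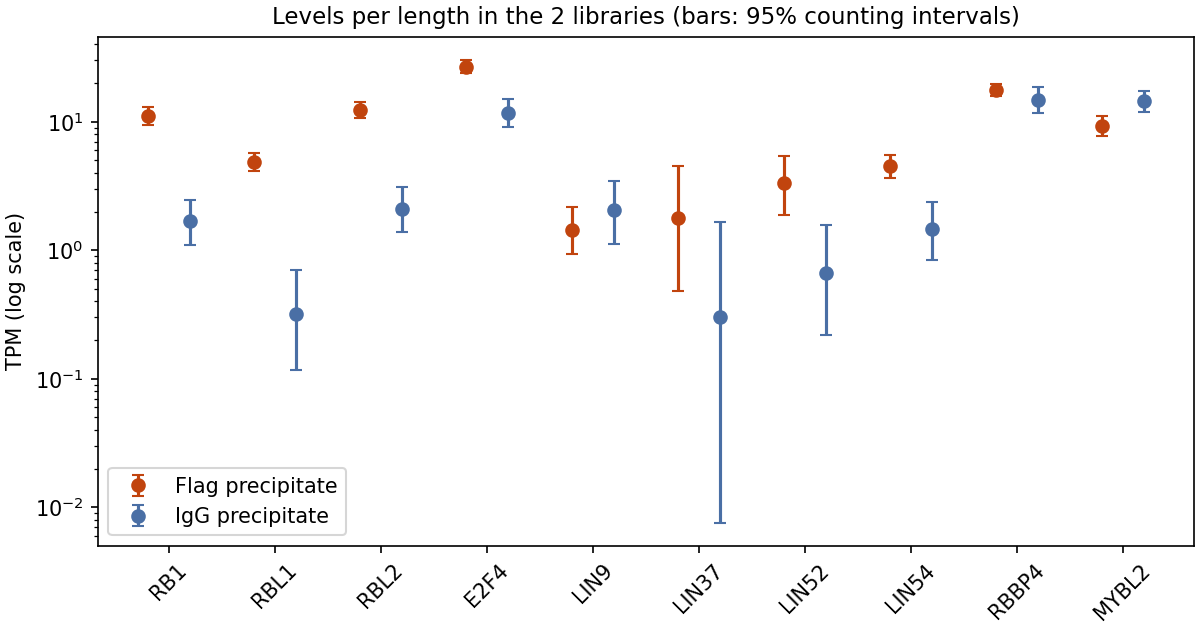
TPM of each of the 10 members on a log axis, in the Flag (left point) and IgG (right point) precipitates, with 95% counting intervals as bars. The bars take effective length as known. For LIN52, with 16 Flag and 5 IgG counts, the intervals in CPM overlap. The bars of the 3 pocket protein genes, E2F4, LIN52 and LIN54 stand apart with the Flag point higher, those of MYBL2 stand apart by a little with the Flag point lower, and those of RBBP4, LIN9 and LIN37 overlap. Over all tested genes such bars stand apart with Flag higher for 47.2% and with Flag lower for 8.67%.

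A TPM ratio above 2 was found for 6 of the 9 tested members and one below 0.5 for 0, against 44.2% and 6.59% of all tested genes (pseudocount 0.1). RBBP4 lost most of its difference on this scale. It had 17.6 Flag TPM and 14.9 IgG TPM, a ratio of 1.18, against 2.92 from counts. TPM divides by the effective length of a gene, which depends on the isoforms that the estimate assigns reads to, and for RBBP4 that length was 3568 bases with Flag and 1439 with IgG. RBBP4 has 20 annotated transcripts and fractional counts in both libraries, so both its length and its count are estimates. All 6 rows of RBBP4 pseudogenes were listed at 0 in both libraries.

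Effective length differed by more than 1.5-fold between the libraries for 4 of the 9 tested members, and for 27.8% of all tested genes. RB1 went the other way from RBBP4, with 2650 bases in the Flag table and 4649 in the IgG table, so that its TPM ratio was 6.64 (11.2 and 1.68 TPM) against 3.77 from counts. LIN52 had 870.5 and 2148 bases in the Flag and IgG libraries, and LIN9 2978 and 1974, but from 21 and 38 counts in all. For LIN9 the TPM ratio was 0.707, on the other side of 1 from its count ratio. RBL1 (5498 and 5493 bases) and MYBL2 (2453 and 2448) had nearly the same length in both libraries, and their TPM ratios of 15.3 and 0.646 were close to their count ratios. RBL2 (2836 and 3577 bases), E2F4 (1788 and 1630) and LIN54 (3790 and 3159) lay between, with TPM ratios of 5.90, 2.29 and 3.07. Isoforms were not measured directly in the gene tables.

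**Figure D3:**
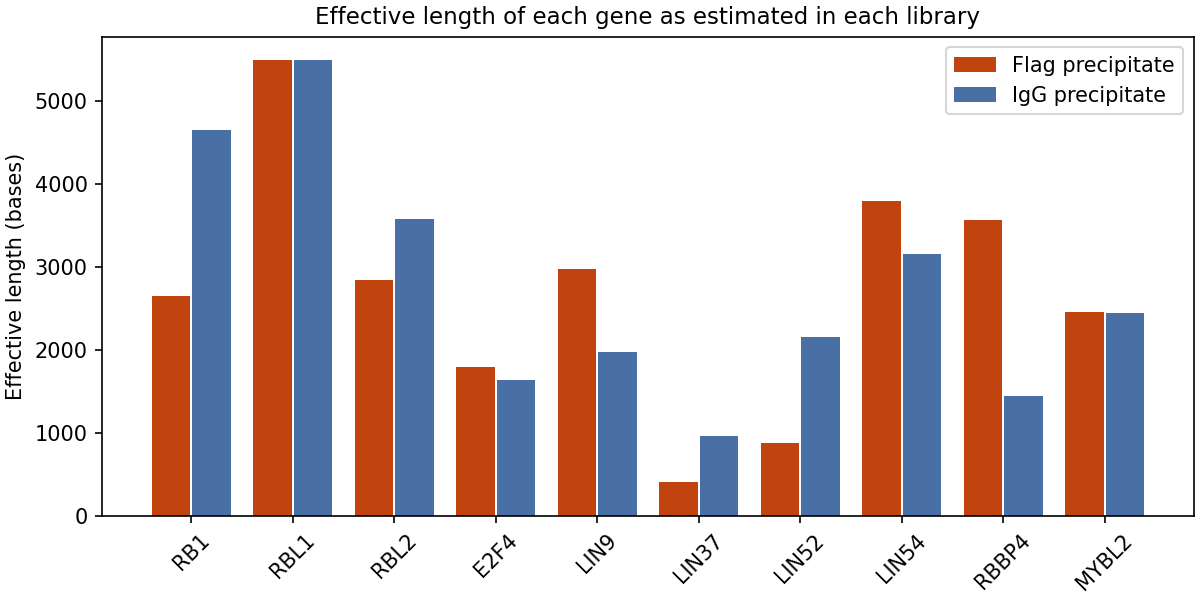
Effective length in bases of each member as estimated in the Flag (left bar) and IgG (right bar) libraries. RB1, RBL2, LIN37 and LIN52 have the shorter bar in the Flag library, and RBBP4, LIN9, LIN54 and E2F4 the longer. RBL1 and MYBL2 have bars of nearly equal height.

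The zero point of the count ratios rests on which RNAs fill each library. TMM scaling, which assumes that most genes do not differ, lowered every log2 ratio by 0.78. With it 12.0% of all tested genes came out enriched and 6.12% depleted, and with median-of-ratios scaling 11.7% and 6.24%. RBL1 was then the only enriched member, at 9.05-fold (4.06 to 25.0), and MYBL2 was depleted, with a ratio of 0.377 (0.292 to 0.487). RB1 (2.20, 1.46 to 3.44), RBL2 (2.73, 1.81 to 4.28), LIN54 (2.15, 1.26 to 3.91) and RBBP4 (1.70, 1.32 to 2.22) lost their calls, and LIN9 had a ratio of 0.620 (0.308 to 1.30), on the other side of 1. Their order, and the count folds between members above, are the same under any scaling of the counts, but not on TPM.

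**Figure D4:**
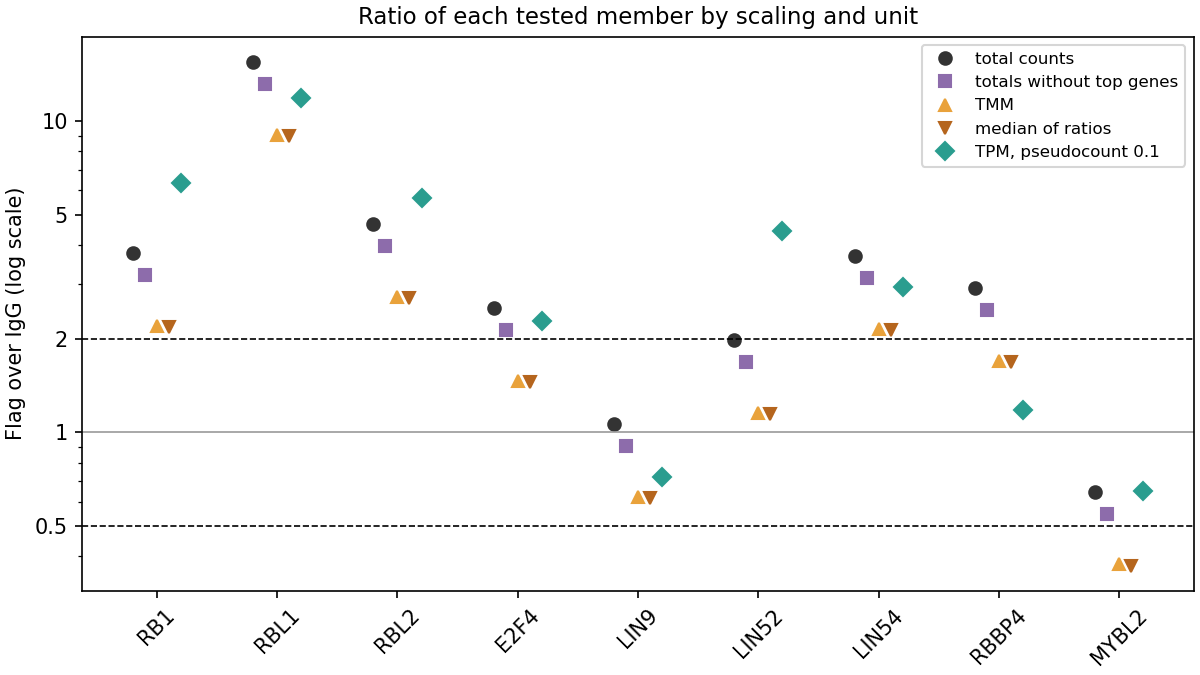
Flag over IgG ratio of each tested member on a log axis, with total counts, totals without the most abundant genes, TMM, median of ratios and TPM. RBL1 lies above 2 in every case, MYBL2 lies below 1 in every case, and RBBP4 lies lowest with TPM.

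RefSeq lists genes whose spans overlap those of members. Overlap of exons was not examined and the strand setting is not given, so whether reads were shared was not tested. RB1 and RBL2 had whole expected counts in both libraries, while those of RBBP4 were fractional. SYNC, which overlaps RBBP4, had 128 Flag and 16 IgG counts, and AKTIP, which overlaps RBL2, had 14 and 3. LPAR6, which lies within RB1, had 1 Flag count and 0 IgG counts. The other overlapping rows found in the files had at most 3 counts in a library.

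Some paralogs and partners were set beside the members. MYBL1 and FOXM1 had the highest lower bounds of their list and MYBL2 the lowest ratio of the members. The folds between them therefore describe these genes and are no test, and each interval covers 1 pair only. A ratio below 1, as for MYBL2, was found for 0 of 6 tested genes of this list. It was found for 10 of 26 G1/S genes and 15 of 35 G2/M genes of the lists below, and for 22.0% of all tested genes. MYBL1, its paralog A-MYB, had 570 Flag and 90 IgG counts, a ratio of 3.93 (3.14 to 4.97). FOXM1, which follows B-MYB onto mitotic genes, had 873 Flag and 142 IgG counts, a ratio of 3.82 (3.19 to 4.59). Both were enriched, MYBL1 lay 6.08-fold above MYBL2 (4.30 to 8.61) and FOXM1 5.91-fold (4.30 to 8.10), and on TPM the folds were 5.41 and 6.73. For RBBP4 and its paralog RBBP7 the scales disagreed. RBBP7 had 125 Flag and 72 IgG counts, a ratio of 1.08 (0.800 to 1.46), which put RBBP4 2.71-fold above it (1.81 to 4.04), while on TPM RBBP7 had the higher ratio, 1.95 against 1.18. The effective length of RBBP7 was 802.4 bases with Flag and 1449 with IgG, a difference opposite to that of RBBP4.

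In all, 4 of 6 tested genes (66.7%) of this list of partners and paralogs were enriched and 0 depleted, against 28.7% and 1.32% of all tested genes. TMM scaling gave 0 and 0 (12.0% and 6.12% of all tested genes). The list's median log2 ratio from total counts was 1.67. The other enriched genes, named after their values were seen, were DYRK1A, the kinase of LIN52 (3.37, 2.15 to 5.52), and PPP2CA, a catalytic subunit of protein phosphatase 2A (2.99, 2.03 to 4.52). PPP2CB had a ratio of 2.20 (1.53 to 3.22), and MYB, with 0 Flag counts and 1 IgG count, was not tested. Of 9 other E2F and DP factors 3 (33.3%) were enriched and 0 depleted (TMM scaling: 0 and 0), with a median of 1.53. These were the repressor genes E2F6 (136 Flag and 18 IgG counts, 4.69, 2.86 to 8.15) and E2F7 (150 and 30 counts, 3.10, 2.09 to 4.76), and the DP gene TFDP2 (148 and 30 counts, 3.06, 2.06 to 4.70), named after its value was seen. E2F2 (0.483, 0.222 to 1.03) and E2F8 (0.621, 0.328 to 1.18) had the lowest upper bounds.

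Enzymes that act on pocket proteins were divided. Of 11 tested kinase, cyclin and phosphatase genes 4 (36.4%) were enriched and 0 depleted, against 28.7% and 1.32% of all tested genes. TMM scaling gave 2 and 1, and the median log2 ratio from total counts was 0.57. CCND1 (7.59, 6.88 to 8.40) and CDK6 (5.05, 4.40 to 5.83) encode a cyclin D1 kinase that phosphorylates RB1. The kinase gene CDK4 (0.962, 0.768 to 1.21) and the cyclin D genes CCND3 (1.16, 0.896 to 1.51) and CCND2 (1.19, 0.546 to 2.72) were not called. They too were named after their values were seen. CDK2 (3.25, 2.29 to 4.73) and PPP1CB, a phosphatase subunit (2.60, 2.07 to 3.29), were named after their values were seen. PPP1CA, another catalytic subunit of protein phosphatase 1, had 46 Flag and 80 IgG counts and a ratio of 0.357 (0.243 to 0.519), with fractional counts, and was the 1 gene depleted with TMM scaling. CCNE1 had a ratio of 0.621 (0.323 to 1.19).

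Of 18 RB corepressors and RB-binding proteins 5 (27.8%) were enriched and 3 depleted, against 28.7% and 1.32% of all tested genes. TMM scaling gave 3 and 5, and the median log2 ratio from total counts was 0.06. RBBP9, a serine hydrolase that binds RB1, had 177 Flag and 11 IgG counts and a ratio of 9.99 (5.45 to 20.4). The histone methyltransferase gene SUV420H1 had 72 and 5 counts and a ratio of 8.94 (3.66 to 28.4). RBBP6, a ubiquitin ligase that binds RB1, had 2717 and 7481 counts and a ratio of 0.225 (0.216 to 0.236). ARID4A, which links RB1 to SIN3 and histone deacetylases, had 592 and 1271 counts and a ratio of 0.289 (0.262 to 0.319). Further called genes, named after their values were seen, were RBBP5, of histone methyltransferase complexes (5.12), the histone demethylase KDM5A (3.67) and the deacetylase HDAC2 (3.03), all enriched, and ARID4B (0.358), the paralog of ARID4A, depleted.

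Of 19 genes of other complexes that hold RBBP4, 4 (21.1%) were enriched and 1 depleted, against 28.7% and 1.32% of all tested genes. TMM scaling gave 3 and 3, and the median log2 ratio from total counts was 0.98. EED, of Polycomb complex 2, had 662 Flag and 40 IgG counts and a ratio of 10.3 (7.46 to 14.5), and GATAD2B, of the NuRD complex, 1007 and 91 counts and a ratio of 6.87 (5.54 to 8.61). BPTF, of the chromatin remodeller NURF, had 2860 and 7473 counts, part of them fractional, and was depleted (0.238, 0.227 to 0.248). CHD3, of NuRD, stood at 0.498 (0.448 to 0.554), which is no call. The SIN3 subunit gene SAP30 (131 and 7 counts, 11.6, 5.48 to 29.5) and MBD2, of NuRD (4.12, 3.01 to 5.74), both named after their values were seen, were enriched.

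The mRNAs of genes that DREAM represses had lower medians than the members. Of 26 G1/S genes 5 (19.2%) were enriched and 0 depleted, against 28.7% and 1.32% of all tested genes (TMM: 2 and 4). The G1/S genes had a median log2 ratio of 0.42 against 0.95 for all tested genes. The checkpoint kinase gene CHEK1 had 229 Flag and 25 IgG counts (5.69, 3.75 to 8.97). MCM4, SLBP and CDC6, named after their values were seen, had ratios of 3.99, 3.14 and 2.97. MCM5 (0.599) and POLE (0.676) had the lowest upper bounds. Of 35 G2/M genes 5 (14.3%) were enriched and 3 depleted (TMM scaling: 2 and 5), with a median of 0.31. The mitotic kinase gene AURKA had 185 and 17 counts (6.76, 4.11 to 11.8) and ECT2, which drives cytokinesis, 458 and 63 (4.51, 3.46 to 5.97), while GTSE1 (4.23), TTK (3.90) and ASPM (3.57) were named after their values were seen. The 3 depleted genes were MKI67 (0.236), CENPF (0.274) and, named after its value was seen, CENPE (0.294), which are among the most abundant RNAs of both libraries. A ratio between precipitates is not the expression of a target gene, and whether the subunits' mRNAs differ from those of their targets was not tested.

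**Figure D5:**
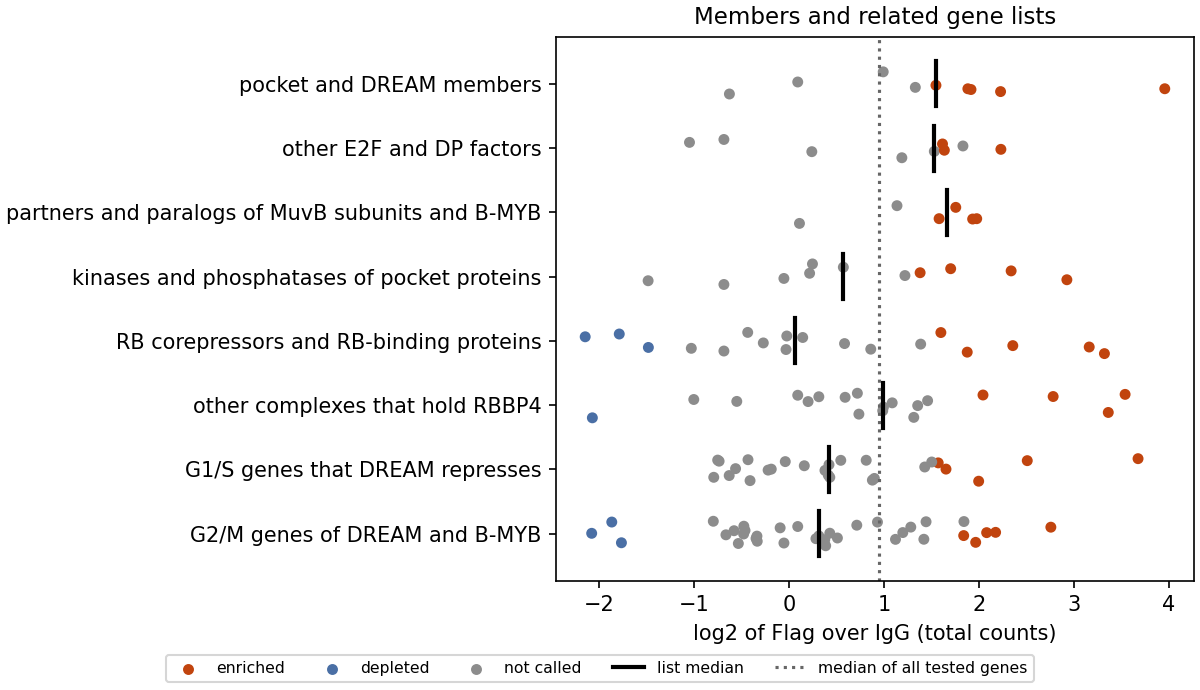
log2 Flag over IgG ratio of every tested gene in the members and 7 related lists, coloured by call, with the list median as a black bar and the median of all tested genes as a dotted line. The members' median is 1.55, the medians of the E2F and partner lists are 1.53 and 1.67, and those of the G1/S and G2/M genes are 0.42 and 0.31.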

How the data were processed

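RNA immunoprecipitates of ACHN cells expressing MEX3A-Flag were compared, 1 Flag and 1 IgG library. The authors deposited expected counts, which are estimated reads per gene that are not normalized, in the layout of RSEM gene output, per the file headers. The authors also deposited TPM, abundance per effective length on a common scale, and FPKM, which was not used, per the file headers. The submitters' processing notes name STAR, RSEM, GRCh37 and hg19. Tool versions, annotation release and strandedness were not given in the sources.

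Expected counts were rounded to whole numbers and divided by the library total. Genes reaching 20 counts in both libraries together were tested, in the sense that a ratio was given an exact 95% Clopper-Pearson interval from the Flag share of its counts. Intervals of single levels are exact Poisson intervals. The reads carry no molecular identifiers, PCR copies are not separate molecules, and intervals and floors therefore cover counting error only. A count of 0 allows up to 3 counts, which equal 0.546 CPM (Flag) and 0.879 CPM (IgG). With 1 library a group no test across genes was run. Functions were tested on simulated data. Counts further than 0.01 from a whole number are called fractional, as for 15.7% of tested genes.

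TMM factors came from edgeR 4.0.16 and median-of-ratios factors from DESeq2 1.42.0, over all genes with a count. The other steps used Python 3.11.15 with scipy 1.17.1. Overlaps and promoter letters come from RefSeq tables of another build than the files, in which all 10 members matched by symbol. The members, lists and alternatives were chosen with earlier results of these data known. The rule for named genes took all members and, of each other list, up to 2 enriched genes ranked by lower bound and up to 2 genes with the lowest upper bound. The list symbol PECAM1 was not found in the files. A gene that the rule takes is not reported here.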

Additional observations from a re-analysis of the deposited data

How the results depend on the processing

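Of 15 alternatives, 14 were planned and 1, the sum of both RBL1 rows, was added after seeing the data. RBL1 kept its call under all 14 that gave it a value, with ratios from 4.47 (TPM with a pseudocount of 1) to 15.8. The enriched members, 5 of 9 as reported, numbered 1 under TMM scaling, 1 under median-of-ratios scaling, 3 when mitochondrial and the 10 most abundant genes were left out of the totals, 1 at a threshold of 4-fold and 3 of 7 with whole counts only, where RBL1 and RBBP4 drop out. Beside these, all enriched genes numbered 3100 of 10811 as reported. Under the same alternatives in that order they numbered 1293, 1269, 2412 and 924 of 10811, and 2664 of 9116 with whole counts only. Depleted members numbered 1 under TMM and 1 under median-of-ratios scaling, in each case MYBL2, against 6.12% and 6.24% of all tested genes. RB1 and RBL2 lost their calls under 3 alternatives, LIN54 under 5 (a 99% interval among them) and RBBP4 under 6. E2F4 was called with TPM at both pseudocounts and at a threshold of 1.5-fold, and LIN52 with TPM, in which no interval enters. LIN9 crossed 1 with TMM (0.620), median-of-ratios scaling (0.615), the totals without abundant genes (0.904) and TPM (0.803 and 0.721 at pseudocounts of 1 and 0.1). Scaling moves all ratios alike by construction, and TPM moves them by effective length.

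Over all genes, 3100 enriched and 143 depleted became 1293 and 662 under TMM scaling, and 1269 and 675 under median-of-ratios scaling. Of the same 10811 genes, depleted genes numbered 228 with the totals without abundant genes, 536 and 712 with TPM at pseudocounts of 1 and 0.1, and 298 at 1.5-fold. With no filter they numbered 218, but of 17302 genes. Enriched genes numbered 4780 with TPM at 0.1, and a 4-fold threshold left 924 enriched and 24 depleted. In the related lists together, 30 enriched and 7 depleted of 124 genes became 12 and 18 under TMM as under median-of-ratios scaling, and 8 and 3 at 4-fold, with 48 enriched at 1.5-fold and 12 and 13 depleted with TPM at 1 and 0.1. No paired analysis was possible because each group has 1 library. LIN37 and LIN52 are limited by depth.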
